A study of Mus musculus with 2 samples.

Results

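Genes of the splicing machinery and of the heterogeneous nuclear ribonucleoproteins (hnRNPs) were examined among the RNAs recovered with HuR (Elavl1) from C2C12 cells, a mouse myoblast line. A clone belonged to this group when its gene symbol began with Hnrnp, Snrp, Sf3a, Sf3b or Prpf. Symbols with Srsf, Rbm, Ddx or Dhx followed directly by a digit belonged too. Current and older spellings were taken, and Ddx21 was left out. The rule found 153 of the 16896 cDNA clones on the array, and they named 99 genes. The rule rests on symbols, not on scores. It also takes in genes with no role in splicing, such as DEAD-box helicases of ribosome production, so the families are described one by one.

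There were 2 samples, 1 of RNA recovered by immunoprecipitation with an antibody to HuR and 1 with control IgG, which the table heads as IgG1, both from extract of untreated, proliferating C2C12 cells grown with 20% serum to 80% confluency. The RNA was reverse transcribed with a radioactive nucleotide and read on a cDNA array. Each sample was read in 3 array runs, of which 1 is unnumbered and the others are numbered 3 and 4. The labels do not say whether the runs were separate immunoprecipitations, so each antibody counts as 1 sample, and no test between the antibodies was made. The authors' z scores express each spot relative to all spots of its run in the same section of the array, of which there are 2. A difference of 1 z score unit is thus 1 standard deviation (SD) of a run in a section and is not a fold change. Scores below are centred on the run's median in the section. A difference is the HuR score minus the IgG score, averaged over the 3 run pairs of the same number, and ± gives the SD over these pairs, a spread between array runs. The z scores carry no information on the total amount of RNA recovered with an antibody.

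Pre-mRNA splicing removes introns in the nucleus. Small nuclear ribonucleoproteins (snRNPs) with Sm proteins and the SF3 and PRPF proteins build the spliceosome, SR proteins mark exons for it, and hnRNPs coat the transcript and often counter the SR proteins. DEAH-box helicases remodel and release the spliceosome, and DEAD-box helicases unwind RNA in splicing, ribosome assembly and translation. HuR is itself an RNA-binding protein with RNA recognition motifs, as are many of the hnRNP, SR and RBM proteins, and it binds AU-rich and U-rich stretches of messenger RNAs. The comparison asks which messenger RNAs were enriched in the HuR complex, here those that encode other RNA-binding and splicing proteins.

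The counts use the brighter clones, those with a mean score over the 6 runs at or above the array's median, 8467 clones with ties. These held 82 of the 153 clones, from 63 genes. The other 71 clones were dim, and 36 genes had dim clones only. Among the 82, 2 clones were at least 1 unit higher with HuR, against 1.56% of all brighter clones (132 of 8467). Of the 82, 40 (48.8%) were above 0, against 44.2% of all brighter clones. None was at least 1 unit lower, against 0.0945% (8 of 8467). At 0.6 units the counts were 2 higher and 1 lower, against 3.67% and 1.11% of all brighter clones. The median over the 63 genes was -0.0067, and the median over the 4377 named genes with a brighter clone was -0.04. By family, the median was 0.45 for Prpf (7 genes), 0.055 for Rbm (16), 0.043 for Dhx (3), 0.035 for Hnrnp (14), -0.06 for SR (7), -0.10 for Snrp (7) and -0.13 for Ddx (8). The Sf3 family had 1 gene there. In 62 of the 82 clones (75.6%, against 81.6% of all brighter clones) the difference was smaller than its SD.

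**Figure D1:**
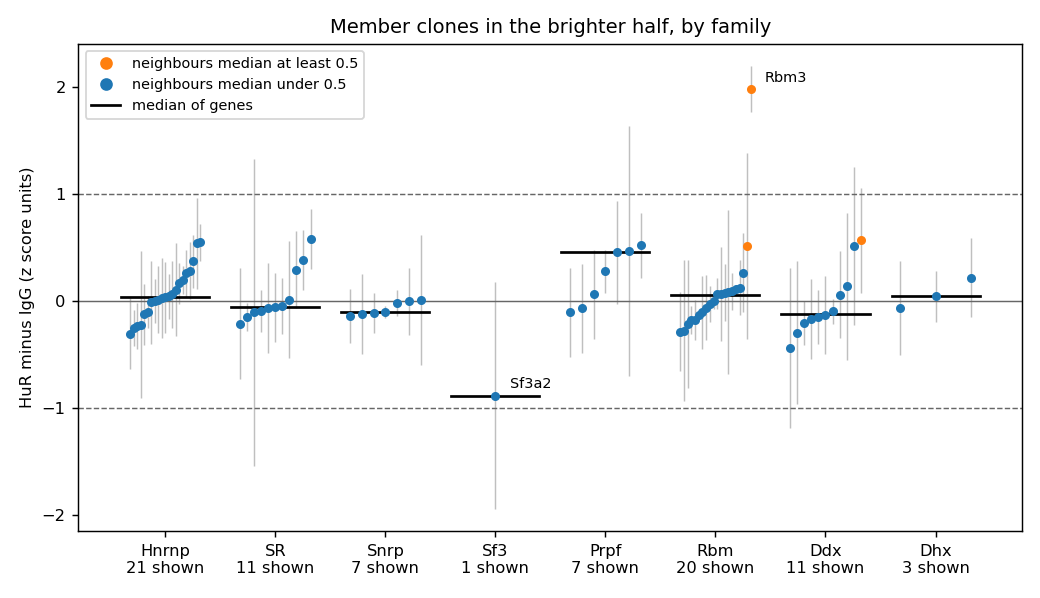
Difference of 81 of the 82 brighter member clones (y axis, HuR minus IgG in z score units), by family along the x axis. Points are clones with their SD over 3 run pairs, black lines are the medians of genes, dashed lines mark 1 and -1, and orange points have adjoining wells with a median difference of at least 0.5. Of the clones shown, Rbm3 at 1.98 alone lies above 1, and it is orange.

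Position on the source plate moved with these values. The clones came from source plates of 96 wells, and the difference of a member clone correlated with the median difference of the wells around it on its plate at r = 0.86 over 82 clones, and at 0.68 over the 78 clones without raised neighbours. Over all 8467 brighter clones it was 0.70, so this holds for the array at large. The points share runs and plates, and the r is a description. Neighbours were called raised at a median of 0.5 or more, taken over at most 8 wells and leaving out wells with a clone of the same gene. They were raised for 4 of the 82 clones, with Rbm3, Ddx3x and Rbm12 among them, against 2.35% of all brighter clones. The 82 clones came from 64 of the 176 plates, with at most 4 on a plate.

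**Figure D2:**
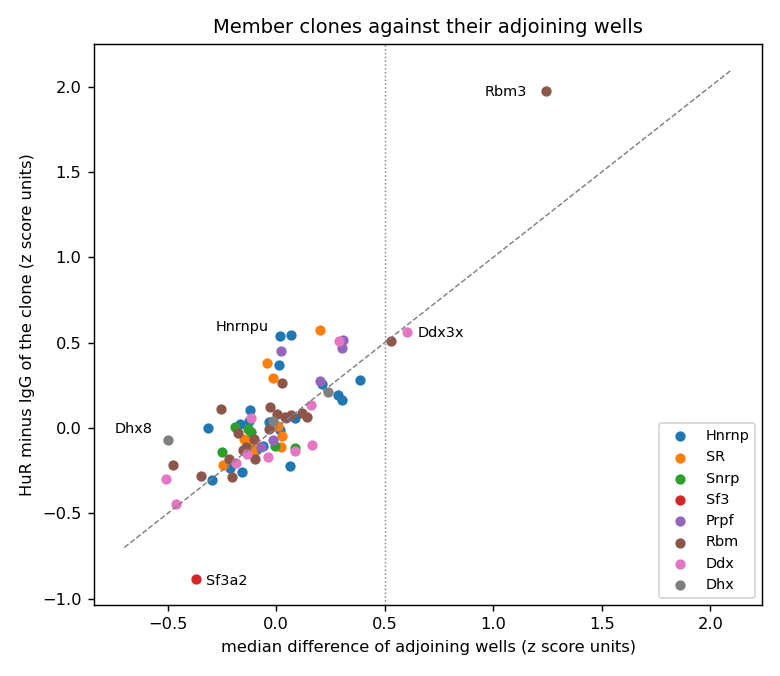
Difference of 81 of the 82 brighter member clones (y axis) against the median difference of its adjoining wells (x axis), both HuR minus IgG in z score units and coloured by family. The dashed line marks equal values and the dotted line a neighbours' median of 0.5. Rbm3 stands at the top right, with neighbours at 1.24, and Sf3a2 lies lowest.

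The hnRNP family had 31 clones of 18 genes, of which 21 clones of 14 genes were brighter ones. None of the 21 reached 0.6 in either direction. Hnrnpu, a nuclear scaffold protein also known as SAF-A (Entrez Gene 51810), had centred scores of 0.78, 0.11 and 0.22 in the unnumbered HuR run, run 3 and run 4, against 0.04, -0.29 and -0.28 with IgG, on its clone of plate 62. The 3 HuR runs all lay above the 3 IgG runs, and the difference was 0.55 ± 0.17 with adjoining wells at 0.07. A dim Hnrnpu clone on plate 153 was similar, at 0.63 ± 0.21, with non-overlapping runs (-0.46, -0.86 and -0.54 with HuR, against -0.90, -1.72 and -1.12 with IgG) and adjoining wells at 0.37. The clone of plate 139 did not follow, at 0.04 ± 0.21, and its runs overlapped. The gene value of Hnrnpu, the median of its clones on plates 62 and 139, was 0.29.

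Hnrnpul1, a relative of Hnrnpu (Entrez Gene 232989), had the highest gene value of the family among the brighter clones, 0.54 ± 0.42. With the dim clone included, the median of the Hnrnpu clones was 0.55. The single Hnrnpul1 clone scored 0.69, -0.01 and 0.19 with HuR, against -0.33, -0.24 and -0.17 with IgG. These runs did not overlap either, although the unnumbered pair (1.02) contributed most, against 0.23 in pair 3 and 0.36 in pair 4. Hnrnpa0, which binds AU-rich elements, was at 0.37 ± 0.25, with 0.74, 0.17 and 0.11 with HuR, against 0.09, -0.01 and -0.16 with IgG. Hnrnpl, which binds CA-rich RNA, was at 0.26 ± 0.22, with 1.62, 1.49 and 1.61 with HuR, against 1.42, 1.42 and 1.11 with IgG. In both, all HuR runs were above all IgG runs, by a small margin. The adjoining wells of these clones were at 0.02 for Hnrnpul1, 0.01 for Hnrnpa0 and 0.21 for Hnrnpl.

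At the low end of the family stood Hnrnpa2b1, an RNA transport and splicing protein, at -0.31 ± 0.34, and Hnrnpab at -0.24 ± 0.22. The wells adjoining Hnrnpab on plate 136 were at -0.21. Hnrnpa2b1 scored -0.10, 0.25 and 0.14 with HuR, against 0.38, 0.17 and 0.66 with IgG, on plate 15, where adjoining wells were at -0.295. Its dim clones were at 0.14 on plate 69 and -0.13 on plate 139. Hnrnpc, which binds U tracts, had 5 clones, the most in the family. The brighter ones were at 0.00 ± 0.20, 0.10 ± 0.44 and -0.26 ± 0.17, and the dim ones at -0.18 ± 0.29 and 0.30 ± 0.21. No brighter Hnrnpc clone had runs that separated the antibodies. Hnrnpd, or AUF1, which binds AU-rich elements and often acts against HuR, had 1 dim clone at -0.12 ± 0.40. Hnrnpa1, a splicing repressor, had adjacent clones on plate 111 at -0.13 and 0.02, and a dim clone at -0.01. Hnrnpk, which binds C-rich RNA, was at 0.03 and -0.22, Hnrnpf at 0.19, Hnrnpdl at 0.16, Hnrnpll at 0.06 and Hnrnph1 at -0.01. Hnrnpa3 had clones at 0.28, 0.01 and -0.10. Among genes with a dim clone only, Hnrnph2 was at -0.24 ± 0.08, with -0.23, -0.17 and -0.31 with HuR, against 0.04, -0.02 and 0.00 with IgG. Its HuR runs all lay below its IgG runs, and its adjoining wells were at -0.22. Hnrnpr and Hnrnpm were at -0.02 and -0.20.

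SR proteins, which bind exonic enhancers through RNA recognition motifs and carry arginine-serine tails, had 20 clones of 8 genes, with 11 clones of 7 genes among the brighter clones. Srsf11 (Entrez Gene 69207) was highest at 0.58 ± 0.28, with 0.70, 0.25 and 0.43 with HuR, against -0.13, -0.38 and 0.16 with IgG, on plate 46. The HuR runs lay above the IgG runs there, with adjoining wells at 0.20. A second, dim Srsf11 clone was at -0.18 ± 0.13 on plate 113, so its clones disagree in sign. Srsf2, also known as SC35, was above 0 on both brighter clones, at 0.38 ± 0.28 on plate 75 and 0.29 ± 0.36 on plate 143. On plate 75 the HuR runs (0.87, 0.38 and 0.48) were all above the IgG runs (0.17, 0.14 and 0.28), and adjoining wells were at -0.04. On plate 143 the HuR runs were 0.96, 0.19 and 0.28, against 0.27, 0.19 and 0.10 with IgG, and they overlapped. A dim Srsf2 clone was at -0.10 ± 0.32.

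The lowest SR genes were Srsf3, the smallest SR protein, at -0.22 ± 0.52, and Srsf7 at -0.11 over clones at -0.07 and -0.15. Srsf3 had further dim clones in adjoining wells of plate 25 at -0.19 and -0.13. Srsf10, an SR protein that represses splicing when dephosphorylated, varied most between runs. Its clone on plate 81 scored 2.68, 2.82 and 1.82 with HuR, against 3.26, 1.32 and 3.07 with IgG. The run pairs thus gave -0.58, 1.5 and -1.25, and the mean of -0.11 ± 1.43 hides opposite directions. Other brighter Srsf10 clones were at 0.01 ± 0.55 and -0.05 ± 0.26. Srsf4 and Srsf6 were at -0.10 and -0.06, and Srsf5 had only a dim clone at -0.08. The dim clones of the family ranged from -0.19 for Srsf3 to 0.35 for Srsf10.

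The Snrp genes encode proteins of the spliceosomal snRNPs. They had 12 clones of 10 genes, with 7 clones of 7 genes among the brighter clones, and gave the narrowest set of values, from -0.14 to 0.0067. Snrpe, an Sm ring protein, was at -0.14 ± 0.25 and Snrpc, a U1 protein, at -0.12 ± 0.38, while Snrpg and Snrpb2 were at -0.0067 ± 0.31 and 0.0067 ± 0.60. Snrpb, Snrpd1 and Snrpd2, further Sm proteins, were at -0.10, -0.12 and -0.02. The runs of the antibodies overlapped in each of these 7 clones. Snrpb2, a U2 protein, scored 2.60, 0.60 and 0.73 with HuR, against 3.29, 0.23 and 0.39 with IgG. On this spot the unnumbered runs were high with both antibodies. Dim Snrpb2 clones were at 0.14 ± 0.39 and -0.24 ± 0.21, and in the lower one the HuR runs (-0.84, -0.55 and -0.69) all lay below the IgG runs (-0.40, -0.53 and -0.44). With the median of the adjoining wells subtracted, the Snrp median was 0.09 instead of -0.10.

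SF3 proteins of the U2 snRNP had 5 clones of 5 genes, and only that of Sf3a2 was a brighter one. Sf3a2 (Entrez Gene 20222) scored 2.63, 2.86 and 0.89 with HuR, against 3.24, 2.85 and 2.95 with IgG, on plate 1. The difference of -0.89 ± 1.06 was the lowest of all members among the brighter clones, and it came from run pair 4 (-2.06), against -0.61 in the unnumbered pair and 0.01 in pair 3. Without pair 4 the value was -0.30, and its adjoining wells were at -0.37. Dim clones of Sf3a3, Sf3b1, Sf3b3 and Sf3b6 lay between -0.26 and -0.01.

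The Prpf genes, which encode proteins mostly of the U4/U6 and U5 snRNPs, had 12 clones of 9 genes, with 8 clones of 7 genes among the brighter clones. Their median of 0.45 was the highest of the families. Run pair by run pair (unnumbered, 3, 4) it was 0.50, 0.375 and 0.19. It was 0.16 with the median of adjoining wells subtracted and 0.26 on the second section of the array.

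Prpf18, which acts in the second step of splicing (Entrez Gene 67229), was at 0.52 ± 0.30 on plate 165, where adjoining wells were at 0.31. It scored 0.41, 0.56 and 0.23 with HuR, against -0.28, -0.13 and 0.06 with IgG, with no overlap. Prpf8, the large protein at the heart of the spliceosome, was at 0.27 ± 0.21, with 0.78, 0.50 and 0.54 with HuR, against 0.28, 0.40 and 0.32 with IgG. These runs did not overlap. The adjoining wells were at 0.20, and the median over all clones of its plate, 17, was 0.27 as well. Prpf6, a U5 protein, was at 0.45 ± 0.48, and its run pair 4 was at -0.10. Prpf4b, a kinase, was at 0.47 ± 1.17 over run pairs at -0.56, 0.22 and 1.74. Prpf31, a U4/U6 protein, was near 0 on both clones (0.06 and -0.07), and Prpf38b was at -0.11 ± 0.41, with a dim clone at -0.39. Prpf4 and Prpf3, U4/U6 proteins with dim clones only, were at 0.50 ± 0.58 and -0.21 ± 0.19.

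RBM proteins are named for RNA recognition motifs and act in splicing, translation and RNA decay. They had 36 clones of 22 genes, with 20 clones of 16 genes among the brighter clones. Rbm3, a cold-inducible protein (Entrez Gene 19652), had the highest difference of all members, 1.98 ± 0.22, on a single clone in row F, column 4 of plate 10. It scored 3.14, 3.00 and 3.52 with HuR, against 1.41, 0.93 and 1.39 with IgG. The groups of runs lay far apart. The 8 adjoining wells fell into high ones, at 1.99 (Ext2), 2.17 (Heyl), 2.32 (Slc25a39) and 2.47 (an unnamed clone), and others between 0.11 and 0.50. With their median of 1.24 subtracted, 0.73 remained. What part the wells have in the value of Rbm3 was not tested, and no second clone of the gene was on the array.

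The next RBM gene was Rbm12 at 0.25, the median of clones at 0.51 ± 0.87 (plate 57, raised neighbours at 0.53) and -0.01 ± 0.07 (plate 94). The lowest were Rbm28, a nucleolar protein, at -0.29 ± 0.37, and Rbm17, a splicing factor also known as SPF45, at -0.28 ± 0.66. Rbm6 and Rbm39 showed clones that disagreed. The brighter Rbm6 clone was at -0.07 ± 0.30, while a dim one on plate 15 was at -1.22 ± 0.79, with -0.38, -1.85 and -0.88 with HuR, against 0.56, 0.27 and -0.27 with IgG. It was the 1 dim member clone at least 1 unit lower with HuR, against 0.237% of all dim clones. Its HuR runs lay below its IgG runs, and the adjoining wells were at -0.43. Rbm39, a splicing cofactor, was at -0.11 ± 0.34 on plate 143 and at -0.81 ± 0.97 on a dim clone of plate 29. In that clone run pair 4 (-1.92) carried the value, against -0.37 in the unnumbered pair and -0.14 in pair 3. Rbm4b, a regulator of alternative splicing, was the 1 member among the brighter clones whose HuR runs (0.26, 0.22 and 0.29) all lay below its IgG runs (0.58, 0.39 and 0.35), with a difference of only -0.18 ± 0.13. That is 1.22% of the 82 clones, against 2.47% of all brighter clones (209 of 8467). The wells adjoining Rbm4b on plate 136, which include that of Hnrnpab, were at -0.22. Rbm25 had 5 clones, between -0.22 and 0.26, and Rbm26, Rbm14, Rbm18, Rbm19 and Rbm47 lay between 0.06 and 0.11. Rbm7, Rbm10 and Rbm43 were at 0.05, -0.18 and -0.13. The dim clones of the family ranged from -1.22 for Rbm6 to 0.23 for Rbm25.

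DEAD-box genes had 28 clones of 20 genes, and 17 of the clones were dim. The 11 brighter clones, of 8 genes, had a median of -0.13. Ddx3x, a translation helicase on the X chromosome, was highest at 0.56 ± 0.49, with 1.10, -0.38 and 1.09 with HuR, against 0.38, -0.39 and 0.13 with IgG. Its runs overlapped. Its neighbours on plate 18 were raised, at 0.60. With their median subtracted Ddx3x was at -0.04. Ddx56, a nucleolar helicase, was at 0.51 ± 0.74 through pair 4 (1.33), with a dim clone at 0.05. The Y-linked paralogue Ddx3y was at -0.17 ± 0.38 on plate 4 and at 0.62 ± 0.58 on a dim clone of the same plate. The paralogues have much sequence in common, and whether their cDNA spots share RNA was not tested.

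Ddx5, or p68, a splicing and transcription cofactor, had the most DEAD-box clones. Adjacent clones on plate 23 were at -0.44 ± 0.75 and -0.30 ± 0.67. The others were at 0.13 ± 0.68 on plate 125 and at 0.06 ± 0.41 on plate 131. Plate 23 also held the Rbm17 clone (-0.28) and the lowest Rbm25 clone (-0.22). The 4 member clones there had medians of -0.77, 0.435 and -0.59 over run pairs (unnumbered, 3, 4), beside -0.495, 0.13 and -0.34 for all clones of the plate. The lower values of Ddx5, Rbm17 and Rbm25 on this plate moved with those of the plate, whose part in them was not tested. Ddx4, the germ cell helicase Vasa, was at -0.21 ± 0.21. Ddx39b, an RNA export and splicing helicase also known as UAP56, was at -0.15 ± 0.25. Ddx41 and Ddx18 were at -0.13 and -0.10. The 17 dim clones ranged from -0.54 for Ddx10 to 1.20 for Ddx51. Ddx51, a ribosome production helicase, had the 1 dim member clone at least 1 unit higher with HuR (of 71 dim clones, against 0.7% of all dim clones). It was at 1.20 ± 0.76, with -0.38, -2.04 and -0.82 with HuR, against -1.92, -2.37 and -2.56 with IgG. Single HuR and IgG runs overlapped, and the adjoining wells were at -0.13.

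DEAH-box genes had 9 clones of 7 genes, with 3 among the brighter clones. Dhx36, a G-quadruplex helicase that also binds AU-rich elements, was at 0.21 ± 0.37 over run pairs at 0.64, 0.00 and 0.00, and its dim clone was at -0.09. Dhx30 was at 0.04 ± 0.24 and Dhx8, which releases the spliced RNA, at -0.07 ± 0.44. The spliceosomal helicases Dhx15 and Dhx16 had dim clones only, at -0.14 and -0.25, as had Dhx40 at 0.08 and Dhx9 at 0.03 and -0.05.

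Counting directions over runs, 14 of the 82 clones (17.1%) were above 0 in every run pair, against 10.1% of all brighter clones, and 4 (4.88%) were below 0 in every pair, against 10.5%. In 10 clones (12.2%) the 3 HuR runs all lay above the 3 IgG runs, against 4.55% of all brighter clones. Among them were Rbm3 and, with a difference under 0.6 each, Srsf11, Hnrnpu, Hnrnpul1, Prpf18, Srsf2, Hnrnpa0, Prpf8 and Hnrnpl. With 1 sample per antibody the shares were not tested against each other. They cover brighter clones only, and the mean that defines these takes in the runs of both antibodies. A clone can thus pass through its HuR runs or through its IgG runs. Centred IgG means were below 0 for Hnrnpul1 (-0.25), Hnrnpu of plate 62 (-0.18), Prpf18 and Srsf11 (-0.12 each) and Hnrnpa0 (-0.03). IgG means were above 0 for Rbm3 (1.24), Hnrnpl (1.32), Prpf8 (0.33) and Srsf2 of plate 75 (0.20). The counts were not repeated with brightness taken from 1 antibody. For the dim clones described above as having runs that did not overlap, the share over all dim clones was not computed. In the authors' deposited table, 9 of the 82 clones (11%) had a two-tailed p under 0.05 with HuR higher, against 4.8% of all brighter clones, and 1 (1.22%) with HuR lower, against 3.54%. The sources used here do not say how that p was computed. For Rbm3 the z ratio in the authors' deposited table was 6.6 and for the Hnrnpu clone of plate 62 it was 1.83.

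**Figure D3:**
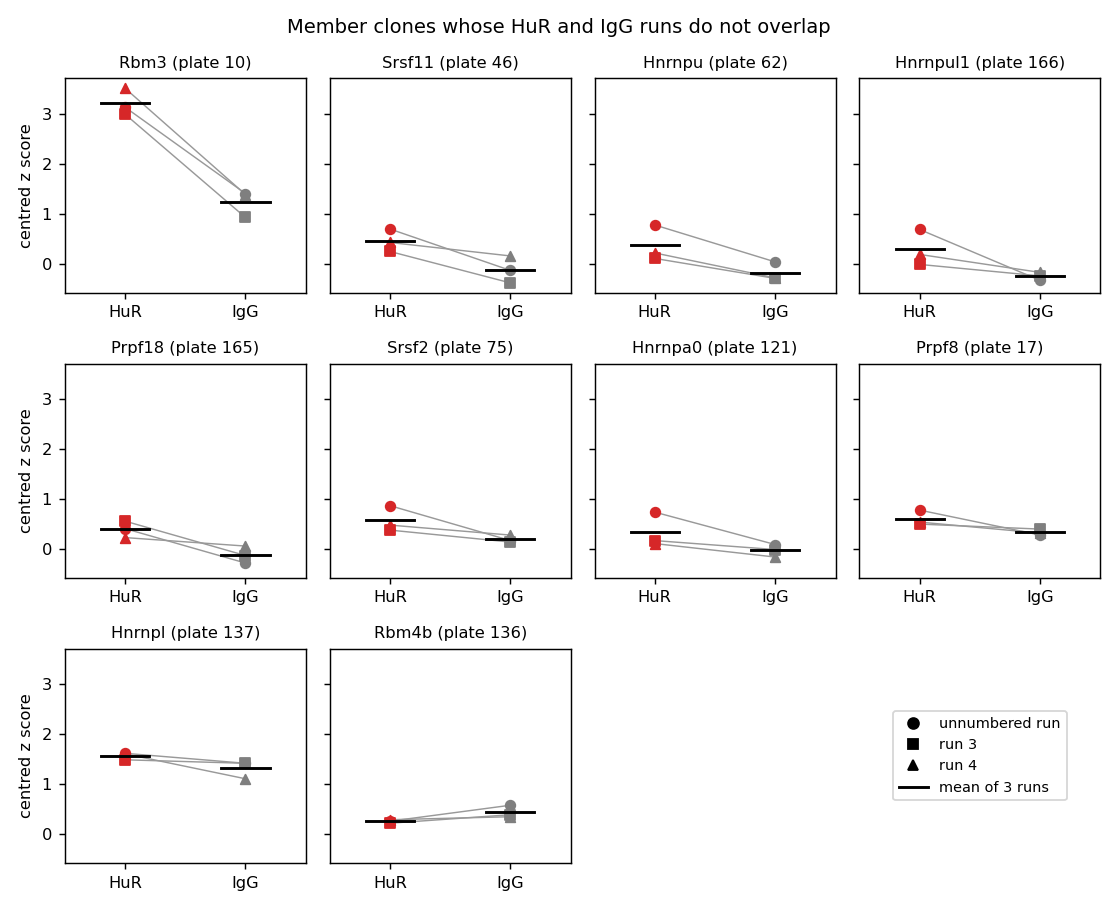
Centred z scores (y axis) of 10 brighter member clones whose HuR and IgG runs do not overlap, with the HuR runs left and the IgG runs right in each panel. Symbols mark the unnumbered run, run 3 and run 4, grey lines join runs of the same number, and black bars are means of 3 runs. Rbm3 shows a wide gap, the next 8 narrow ones, and in Rbm4b the HuR runs are lower.

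The run pairs themselves differed. Medians of the 63 genes by run pair (unnumbered, 3, 4) were -0.09, 0.09 and 0.00, beside -0.12, 0.04 and -0.05 over the 4377 named genes. Over the 82 clones, differences of the unnumbered pair correlated with those of pair 3 at 0.23 and of pair 4 at 0.42, and pairs 3 and 4 at 0.21, beside 0.044, 0.40 and 0.12 over all 8467 brighter clones. Across the 78 clones without raised neighbours, differences of the unnumbered pair correlated with those of pair 3 at -0.099 and with those of pair 4 at 0.20, and pairs 3 and 4 at -0.18. These values describe clones that share runs and plates. The SR median changed sign, at -0.28, 0.175 and 0.19. The Snrp and Ddx medians were above 0 in pair 3 only (0.09 and 0.065). The Hnrnp and Prpf medians of genes were above 0 in each pair, while the median over Hnrnp clones was -0.01 in pair 4.

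**Figure D4:**
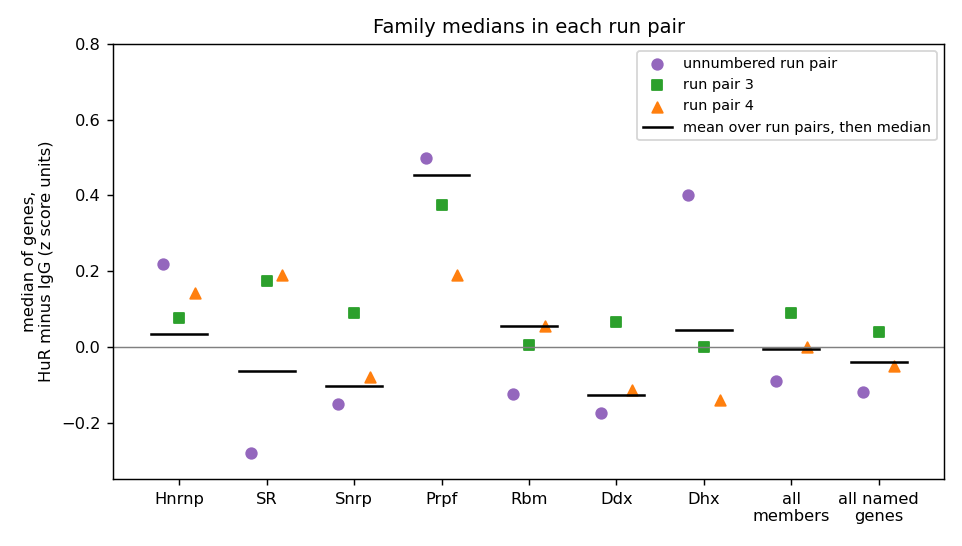
Median of genes (y axis, HuR minus IgG in z score units) for 7 families, all members and all named genes with a brighter clone (x axis), in each run pair. Symbols are run pairs and black lines the median of the genes' means over pairs, which need not lie between the symbols. Prpf and Hnrnp lie above 0 in every pair, and SR ranges from -0.28 to 0.19.

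Several clones of one gene gave a further view, although they share a transcript and are no replicates of the immunoprecipitation. Of 12 member genes with brighter clones on different plates, 0 had every clone at least 1 unit higher or lower. In 9 the clones lay on both sides of 0, in 2 (Srsf2 and Hnrnpu) all clones were above it, and in 1 (Srsf7) all were below it. The shares over all genes of the array with brighter clones on different plates were not computed. These counts are therefore not read as a trait of the members. The range between clones of a gene had a median of 0.26 over 13 genes and reached 0.58 for Ddx5. Annotation terms of the deposited table, given for 69 of the 153 clones, grouped some of them. The 10 brighter member clones with the term spliceosome complex had a median of -0.11, beside -0.10 for all 15 brighter clones with that term. For helicase the median was -0.135 over 8 member clones of 5 genes, beside 0 for all 16 brighter clones with that term. For mRNA splicing it was -0.10 beside -0.06, for RNA binding -0.10 beside -0.085, and for nucleus -0.10 beside -0.02. The values over all clones with a term include the members.

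Other splicing factors outside the naming rule, from a list of 97, had 40 genes among the brighter clones, with a median of -0.04. Of these 40 genes, 15 were above and 25 below 0, where 42.2% of all named genes with a brighter clone were above 0. Of their 52 clones 0 reached 1 in either direction, beside 1.56% of all brighter clones higher and 0.0945% lower. Phf5a, a small SF3b protein, was highest at 0.99 ± 0.17, with 1.45, 0.58 and 1.44 with HuR, against 0.61, -0.37 and 0.26 with IgG, and adjoining wells at -0.0067. Alyref, an mRNA export adaptor, was at 0.87 ± 0.20, with 1.74, 0.88 and 1.42 with HuR, against 1.09, -0.04 and 0.39 with IgG, and adjoining wells at -0.02. Mbnl1, a regulator of alternative splicing, was at 0.81 ± 0.41, with 1.08, 0.89 and 0.69 with HuR, against 0.26, -0.32 and 0.29 with IgG, without overlap and with adjoining wells at 0.29. For Phf5a and Alyref the difference had the same direction in every run pair, although single HuR and IgG runs overlapped. Ppih, a cyclophilin of the U4/U6 snRNP, was lowest at -0.59 ± 0.83, followed by Thoc7 at -0.33 ± 1.12, and each was above 0 in run pair 3. Of the 9 myoblast markers listed only Vim was on the array (-0.10). The 6 listed markers of other cell types on the array all had brighter clones. Their gene values were below 0 (median -0.16), from -0.43 for Alb to -0.003 for Ttr. Below 0 were also 2515 of the 4377 named genes with a brighter clone. A difference between the antibodies does not measure expression, so these values do not check the labelled cell type.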

How the data were processed

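RNA recovered with HuR or control IgG from C2C12 cells was read on a cDNA array in 3 runs per antibody, with 16896 features in 2 sections. The authors deposited z scores for each run, per the file headers and values with mean 0 and SD 1 in each run and section. They also deposited a two-tailed p-value and a z ratio, per the file headers. For background correction, scanner and genome build nothing is given in the sources used here. Scores were centred on the run's median within each section, and differences were averaged over run pairs of the same number. Brighter clones had a mean deposited score of at least -0.09. Each gene takes the median over its brighter clones, and the threshold is 1 z score unit.

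Clones were named by current Entrez Gene or Locus Link number through RefSeq, which named all 153 members. In 12 of them 2 numbers differed and 1 was current. A further 3 clones with 2 current genes, and 2 Ddx21 clones, were left out. Genes named in the text are the 2 highest and 2 lowest of each family, those with a clone at least 0.6 from 0, and those whose clones on different plates lay at least 0.6 apart. The rest are named to account for the family. Members and lists were chosen with earlier results of these data known. With 1 sample per antibody no test was made. Same-numbered runs of both antibodies deviated together (r of 0.42, 0.54 and 0.33 over all features). The calculation was checked on simulated data with added shifts and with deviations drawn independently for each spot and run. These data held neither the correlation with adjoining wells nor the shared deviations of same-numbered runs. The check therefore covers only the recovery of an added shift. Python 3.11.15, numpy 2.4.6, pandas 2.3.3, scipy 1.17.1 and matplotlib 3.10.9 were used. Alternatives covered centring, normalization, signal, clones, run pairs, wells, sections, naming and threshold. Leaving out clones of 2 differing numbers was added after seeing the data. Counts and medians cover all members, but the values of 1 member gene are not reported here and its brighter clone is not drawn.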

Additional observations from a re-analysis of the deposited data

How the results depend on the processing

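The alternatives gave 438 values for the named genes, of which 428 stayed within 1 SD over run pairs and 10 moved further. The sign changed in 31 of the 438, and 28 of these stayed within that SD. The other 3 were Ddx3x, at -0.0367 instead of 0.56 with adjoining wells subtracted, Dhx8, at 0.43 instead of -0.07 in the same setting, and Ddx3y, at 0.225 instead of -0.17 at all signal levels. No gene at least 1 unit from 0 changed sign. Of 172 medians and counts, 152 moved by less and 20 by more. The Hnrnp median of 0.035 was 0.145 with the median over run pairs, and 0.0162 to 0.14 on leaving out a run pair. Its sign did not hold throughout. It was -0.0067 at all signal levels and -0.0067 over the brightest 25% of clones. With adjoining wells subtracted it was -0.0175, and with the symbol columns as they stand 0.0000. The Snrp median was 0.0933 with the median of adjoining wells subtracted. For Prpf the median was 0.22 with the median over run pairs, 0.1633 with adjoining wells subtracted, 0.2558 in section 2 alone and 0.2733 with the symbol columns as they stand. For Rbm it was -0.08 at all signal levels, -0.0483 with the brightest clone of a gene, -0.0667 in section 2 alone, and -0.0488 to 0.0425 on leaving out a run pair. The cause was not tested. The count of clones at least 1 unit higher, 2, was 0 without clones with raised neighbours, 0 with adjoining wells subtracted, 0 in section 2 alone and 1 with the symbol columns as they stand. The count at least 1 unit lower, 0, was 1 at all signal levels (Rbm6), 1 at the threshold of 0.6 (Sf3a2) and between 0 and 1 on leaving out a run pair. Section 2 alone and the symbol columns gave no Dhx median, and the 1 Sf3 gene gave none. Differences were taken between runs of the same number, but with 1 sample for each antibody no paired test was possible. No result comes from a test. Dim clones, 71 of 153, limit what can be said of 36 genes, and the runs give only a spread between array readings.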
